A study of Homo sapiens with 10 samples.

Results

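RNA sites enriched for 5-methylcytosine (m5C) on human chromosome 11 were compared between MDA-468, a triple-negative breast cancer line, and MCF-10A, a non-tumorigenic mammary epithelial line. The members were all rows on chromosome 11 of the authors' 2 site lists, 508 of 8320 sites in MDA-468 and 198 of 5194 in MCF-10A, and 88 of 1795 rows of their table of differential sites. The chromosome was chosen by its share of the sites in each list, which was larger in MDA-468, so that share and its pattern along the chromosome are given as a description without a test. The cells were untreated, and every sample carries the same culture text, which names MDA-MB-468. Methylated RNA immunoprecipitation (MeRIP) and input libraries had 2 replicates per line, and MCF-10A had 2 technical replicates of the MeRIP besides, 10 samples in all. Each line has 1 merged list, so no value has a replicate error, the sequencing depth is unknown, and each line stands for itself only. Identity markers of the lines could not be checked, since transcript levels were not analysed here.

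In MeRIP an antibody pulls down fragments that carry the modified base, and a site is a stretch of exon where the pulled-down RNA is enriched over the input. In messenger RNA, NSUN2 and NSUN6 are the best known writers of m5C, and ALYREF and YBX1 are proteins that bind it. A transcript that a line does not make cannot give a site, so fewer sites may mean less methylation or less RNA, and these cannot be told apart here. Chromosome 11 carries a cluster of secreted mucin genes and an imprinted domain near the start of its short arm, gene-rich stretches in the middle of the long arm, and many of the genome's olfactory receptor genes.

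Genomic sequence in the build of the files (hg19) was not used here, so the sites themselves are not printed. Properties of transcripts given below come from the reference transcript of each gene with a site in GENCODE 29, which is of another build, so the place of a site within its transcript was not analysed here.

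The first question was how much more of the MDA-468 list lay on chromosome 11. It held 6.11% of all sites in MDA-468 (95% Clopper-Pearson interval 5.6 to 6.64) and 3.81% of all sites in MCF-10A (3.31 to 4.37), a ratio of shares of 1.6. The intervals cover the counting of sites only. Among the 23 chromosomes other than Y this was the highest ratio, followed by chromosome 13 at 1.36 and chromosomes 6 and 21 at 1.28. The lowest was 0.74, on chromosome 12. Chromosome 19, whose genes with a site had the highest median transcript GC content (57.3%), had a ratio of 1.03. Chromosome 13, whose genes had a median of 45.1%, had the next highest ratio after chromosome 11. On chromosome 11 the median was 53.4%, the fifth of the 23. Across the 23 chromosomes Spearman's rho between the ratio and the median GC content was 0.29, given as a description because all points share the same lists.

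**Figure D1:**
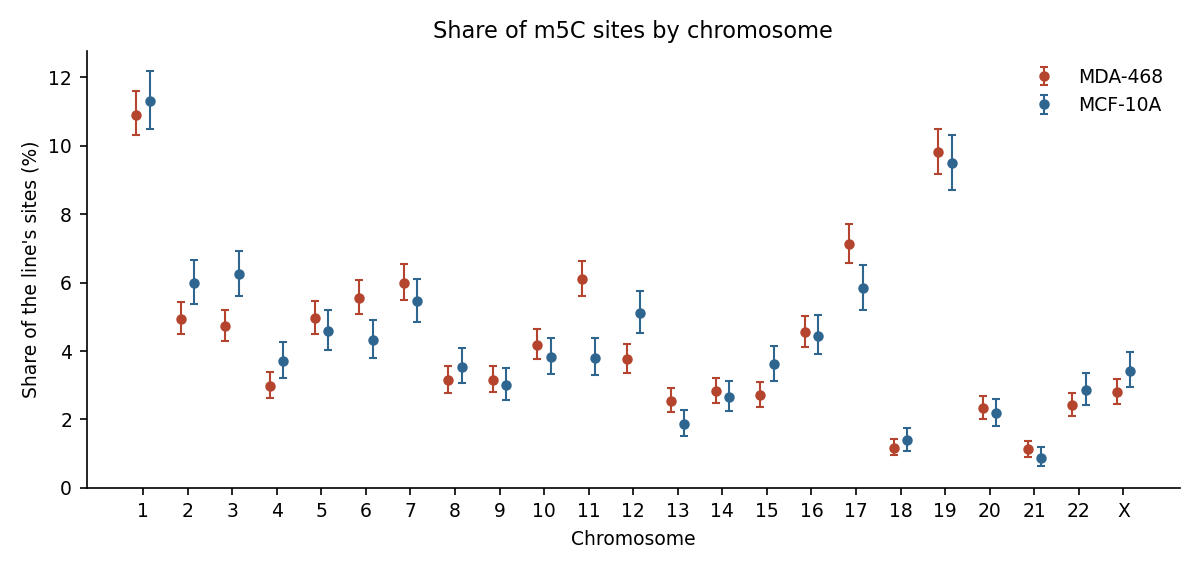
Share of each line's m5C sites (percent, vertical axis) on each chromosome (horizontal axis), MDA-468 in red and MCF-10A in blue, with 95% Clopper-Pearson intervals. Chromosome 11 stands at 6.11% in MDA-468 and 3.81% in MCF-10A, and on chromosome 12 MDA-468 is the lower of the pair, at 3.77% against 5.1%.

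The second question was whether a few loci or the whole chromosome made up this difference. Counted in bins of 5 Mb, 25 of 27 bins held a site, and 16 of the 25 (64%) held a larger share of the MDA-468 list than of the MCF-10A list. On other chromosomes this was so in 184 of 552 bins (33.3%). The excess of a bin was its MDA-468 count minus its MCF-10A count times the ratio of the lengths of the lists, 1.6. At equal list length (the 5194 MDA-468 sites of smallest p-value) it was so in 12 of 24 bins on chromosome 11 and in 167 of 547 on the others (30.5%). Over the chromosome the excess came to a net 190.8 sites, a sum of 217.7 over bins above 0 and -26.9 over bins below. The 4 leading bins held 151.3, or 69.5% of the sum above 0. By these counts the excess was neither even along the chromosome nor held by a single bin. The 4 bins were picked by their excess, so a large share in them is built in. They also held 28.3% of the chromosome's MCF-10A sites and 47.4% of its MDA-468 sites.

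The 4 leading bins lay apart from each other in 3 stretches. At 0 to 5 Mb there were 70 sites in MDA-468 and 12 in MCF-10A. At 60 to 65 Mb there were 64 in MDA-468 and 18 in MCF-10A, and at 65 to 70 Mb 60 in MDA-468 and 14 in MCF-10A. At 115 to 120 Mb there were 47 in MDA-468 and 12 in MCF-10A. Their share ratios were 3.64, 2.22, 2.68 and 2.45, and their ranks by excess among the 577 nuclear bins with a site were 5, 8, 7 and 14. Bins with a larger excess than any of these thus lay on other chromosomes. Without the 4 bins, chromosome 11 held 3.3% of the remaining MDA-468 sites and 2.76% of the remaining MCF-10A sites, a ratio of 1.2.

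**Figure D2:**
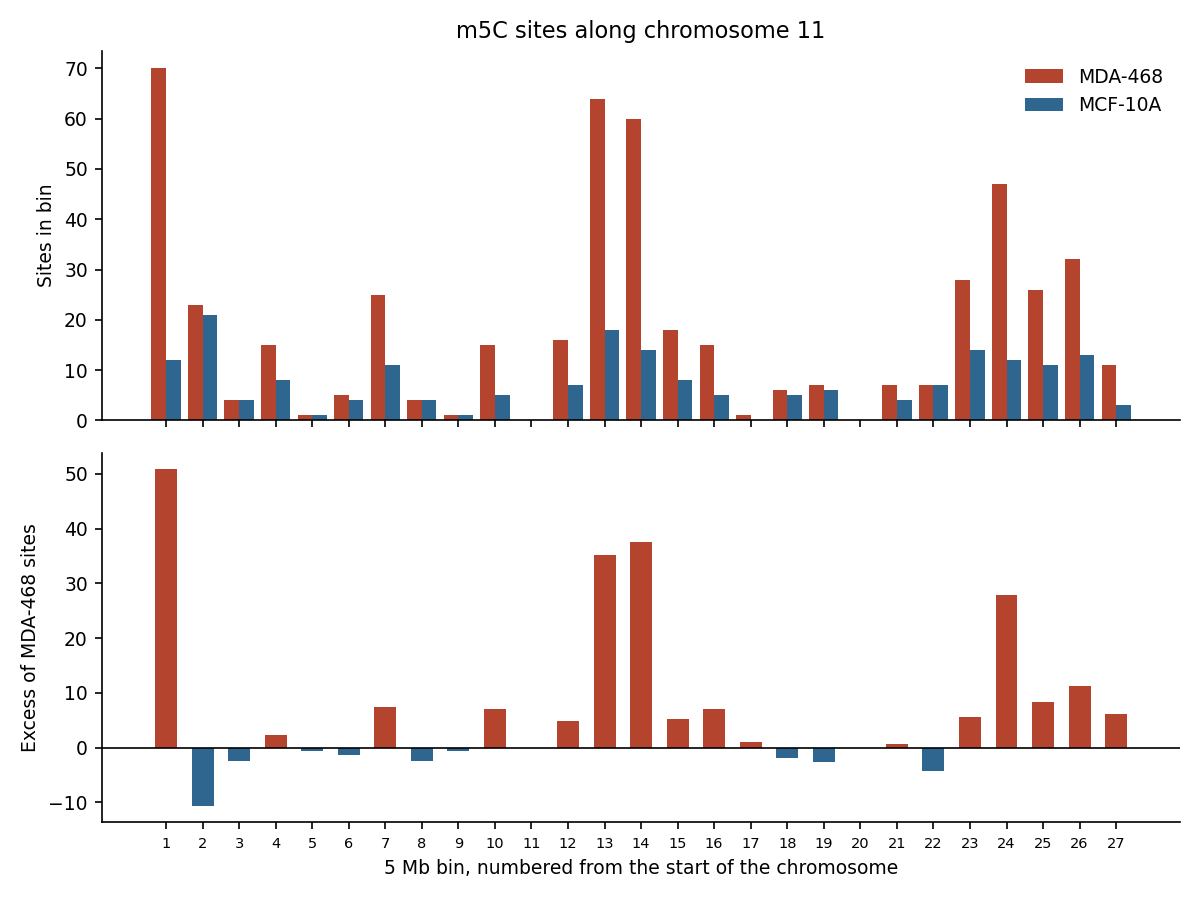
Upper panel: number of m5C sites in each 5 Mb bin of chromosome 11, MDA-468 in red and MCF-10A in blue. Lower panel: excess of MDA-468 sites in the bin over the number set by the MCF-10A count and the ratio of list lengths, red above 0 and blue below. Bins 1, 13, 14 and 24 lead with 50.8, 35.2, 37.6 and 27.8 sites, and bin 2 is lowest at -10.6.

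The bin next to the leading one went the other way. At 5 to 10 Mb there were 23 sites in MDA-468 and 21 in MCF-10A, a share ratio of 0.68 and the lowest excess of the chromosome, -10.6. Its genes with most sites were RPL27A, a ribosomal protein gene (2 in MDA-468 and 3 in MCF-10A), and TMEM41B and TRIM66 (2 in each line). TMEM41B encodes an endoplasmic reticulum lipid scramblase. Genes at 105 to 110 Mb, among them the DNA damage kinase gene ATM (2 sites in each line), had 7 sites in each line, and all 7 MDA-468 sites there overlapped an MCF-10A site. Bins at 50 to 55 Mb, around the centromere, and at 95 to 100 Mb held no site in either line.

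At a finer scale the excess was spread over many genes. Of the 1 Mb bins, 90 held a site, and the leading 4 held 41.1% of the excess. The first of them, at 64 to 65 Mb, held 28 MDA-468 sites in 12 genes and 4 MCF-10A sites in 3 genes. At 1 to 2 Mb, where the secreted mucins lie, there were 21 MDA-468 sites in 10 genes and none in MCF-10A. At 65 to 66 Mb, 25 MDA-468 sites lay in 16 genes and 4 MCF-10A sites in 4 genes. The 6 leading 1 Mb bins were needed to reach 50% of the net excess.

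Site by site, chromosome 11 was less shared in MDA-468 than other chromosomes. Of its 508 MDA-468 sites, 147 (28.9%, 95% Clopper-Pearson interval 25.0 to 33.1) overlapped an MCF-10A site on the same strand, by 1 bp or more, against 47.7% over all chromosomes and 48.9% over the others. Of its 198 MCF-10A sites, 143 (72.2%, 65.4 to 78.3) overlapped an MDA-468 site, against 74.3% over all chromosomes, a share within the interval. Of the 361 MDA-468 sites with no partner, 292 (80.9%) lay in genes that had no MCF-10A site at all, 37 (10.2%) in genes with sites in both lines and 32 (8.86%) had no gene identifier. On other chromosomes the first of these shares was 71.3% and the second 18.2%. At equal list length, 44.3% of the MDA-468 sites on chromosome 11 had a partner (38.5 to 50.2), against 63.2% over all chromosomes and 64.3% over the others. These shares come from the lists that picked the chromosome and were not tested.

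Sites in MDA-468 were shorter. The summed exon length had a median of 151 nt in MDA-468 and 285 nt in MCF-10A, and on other chromosomes 180 and 270 nt. Length also went with sharing: MDA-468 sites had a median of 240 nt where they overlapped an MCF-10A site and 144 nt where they did not, and MCF-10A sites 330 and 150 nt. The lines thus differed among shared sites and were close among unshared ones. Longer sites meet an overlap of 1 bp more easily. On other chromosomes these medians were 240 and 149 nt in MDA-468, and 327 and 151 nt in MCF-10A. Shared sites also had the smaller p-values of the authors, with a median -log10 p of 20.9 against 9.96 at unshared sites in MDA-468, and 80.7 against 17.6 in MCF-10A. On other chromosomes these were 18.2 against 9.48 in MDA-468, and 76.9 against 18.5 in MCF-10A. Sites split over several exon blocks made up 16.5% in MDA-468 (84 sites) and 9.09% in MCF-10A (18 sites), and 12% and 8.11% on other chromosomes. The longest MDA-468 sites were in secreted mucin genes: 3088 nt in MUC6, at 1015958 to 1020142 on the minus strand, and 1348 nt in MUC2, at 1092556 to 1093915 on the plus strand. Next was SLC37A2, a sugar phosphate transporter gene, with 1260 nt at 124959153 to 124960412. The longest MCF-10A sites were in GATD1 (1346 nt), LRTOMT (959 nt) and CPT1A (840 nt), the last the gene of the enzyme that admits fatty acids to mitochondrial oxidation, and all 3 overlapped an MDA-468 site.

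The smallest nonzero p-values of the authors lay at other sites. In MDA-468 these were 1e-154 in MRGPRX3, a sensory neuron receptor gene, 1e-112 in MUC2 and 2e-81 in TRIM44, and 1 further site, in the nuclear long noncoding RNA MALAT1, was listed at 0. In MCF-10A they were 9.9e-323 in PGM2L1, 1e-313 in ELMOD1 and 1e-309 in ARHGAP1, and 12 sites were listed at 0. These p-values depend on depth and are not compared between the lists. The MALAT1 row of the authors' deposited table, which lies within that site, had an enrichment over input of 1.3.

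By gene, chromosome 11 had 194 genes called in MDA-468 only, 35 called in MCF-10A only and 128 called in both, of 357 genes. That is 54.3% in MDA-468 only, against 38.1% over all chromosomes, the highest share of the 23. Those with one in MCF-10A only made up 9.8%, against 11.7% over all chromosomes, and those with a site in both 35.9%, against 50.2%. Among 1301 protein-coding genes of chromosome 11, 24.5% had a site in either list, against 25.3% of 20056 over the genome. The share with a site was thus near the background. Of the same genes 13.8% had it in MDA-468 only, against 10.1% over the genome, 2.15% in MCF-10A only, against 2.87%, and 8.53% in both lines, against 12.3%. The larger MDA-468 only class restates the choice of the chromosome and is no separate result. At equal list length 107 genes were called in MDA-468 only (39.6%), 47 in MCF-10A only (17.4%) and 116 in both (43.0%), against 23.5%, 22.6% and 53.9% over all chromosomes. Genes with at least 2 sites were 100 of 322 in MDA-468 (31.1%) and 23 of 163 in MCF-10A (14.1%), and 29.2% and 23.3% on other chromosomes.

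Among genes called in MDA-468 only, PAX6 and MUC5B led with 7 sites each. Both counts include sites with p-values of the authors above 7.9e-11, the largest among MCF-10A sites of the chromosome. With a p-value limit of 1e-08 in both lists, 145 genes were in MDA-468 only, 40 in MCF-10A only and 123 in both. PAX6, the eye and pancreas homeobox regulator, had its sites between 31808739 and 31832815 on the minus strand, 61 to 361 nt long, with p-values of the authors from 1.6e-21 to 6.2e-09. MUC5B, a gel-forming airway mucin, had sites of 61 to 331 nt between 1261488 and 1268590 on the plus strand, with p-values of the authors from 1.3e-19 to 6.2e-07. DSCAML1, a neuronal adhesion gene, had 5 sites that ran from 117299417 to 117651440, and CCDC88B had 5 between 64107780 and 64124438. The retinal gene MFRP and PYGM, the muscle glycogen phosphorylase gene, had 4 each. MAP3K11 (a kinase of the JNK cascade), TECTA (a protein of the inner ear), PHLDB1 and THY1 (a surface glycoprotein) had 3 each. Whether MDA-468 made these transcripts was not analysed here. Of the 10, only PHLDB1 had a row in the authors' deposited table.

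In MCF-10A only, no gene had more than 2 sites. SCN3B, a sodium channel subunit gene, had sites of 60 and 240 nt between 123502435 and 123503540. OR7E5P, an olfactory receptor pseudogene with many related copies, had 2 of 60 nt with the same p-value of the authors, 3.2e-11, and these are uncertain because reads can be shared between copies.

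Most of the leading genes with sites in both lines had more sites in MDA-468, whose whole list was 1.6 times as long. CDON, a Hedgehog co-receptor gene, had 6 sites in MDA-468 and 2 in MCF-10A. The MCF-10A sites, at 125829435 to 125829704 and 125830183 to 125830422, both overlapped MDA-468 sites, and the second has the same ends in both lists. POU2AF1, a coactivator gene of B cells, had 6 sites in MDA-468, of which 1 overlapped the only MCF-10A site, at 111223397 to 111223842, and the authors' p-value of that MCF-10A site was listed at 0. CABP4, which encodes a calcium-binding protein of photoreceptor synapses, had 4 and 3 sites, and 3 of the 4 were shared. CTSC, the gene of the lysosomal protease cathepsin C, and PRRG4 had 3 in each line. GATD1 had 3 sites in MDA-468 and 2 in MCF-10A, all of them overlapping. More sites did not always mean more RNA covered. GATD1 sites covered 1646 nt in MDA-468 and 2004 nt in MCF-10A, and CABP4 sites 990 and 1109 nt. CTSC and PRRG4 also covered more in MCF-10A, while CDON and POU2AF1 covered more in MDA-468. The authors' deposited table gives CABP4 (-2.25), CTSC (-3.09), GATD1 (-1.58 and -1.22) and POU2AF1 as higher in MCF-10A. CDON and PRRG4 had no row there.

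The transcripts of the gene classes differed in a property that the choice of chromosome did not use. Median GC content of the reference transcript was 58.3% (interquartile range 52.2 to 62.1) in 189 genes of the MDA-468 only class, 46.8% (42.1 to 53.2) in 125 genes with a site in both lines, and 49.8% (45.8 to 55) in 34 genes of the MCF-10A only class. The interquartile range of the first class overlapped that of the second by a single point. On other chromosomes the medians were 56.0%, 46.2% and 46.8%, so the order of the first 2 classes was the same there. Lengths of these transcripts were close, with medians of 3628, 3512 and 2980 nt. No test was made, since genes are not replicates and the classes came from the same lists. PAX6 was an exception among the leading genes, with a transcript GC content of 41.5%, against 64.5% for MUC5B and 67.5% for CCDC88B.

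**Figure D3:**
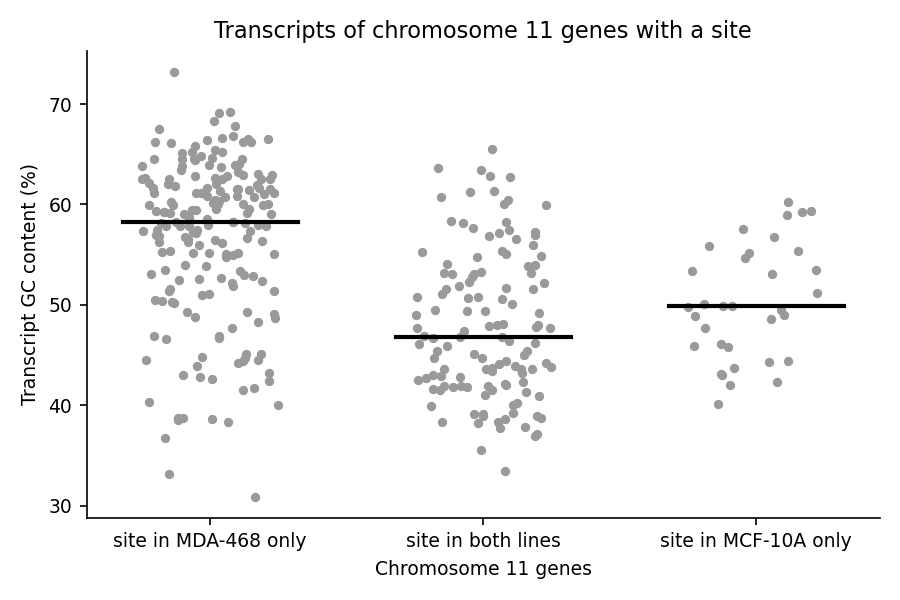
GC content (percent, vertical axis) of the reference transcript of each chromosome 11 gene with a site, by the line in which the site was called. Each grey point is a gene, and bars mark medians of 58.3% (MDA-468 only), 46.8% (both) and 49.8% (MCF-10A only).

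Transcript GC content also differed between stretches of the chromosome. In the 4 leading bins, 97 of 143 genes with a site had it in MDA-468 only (67.8%), 37 in both lines and 9 in MCF-10A only, and the median transcript GC content was 59.4%. In the other bins these counts were 97 of 214 genes (45.3%), 91 and 26, with a median of 48.8%. The 4 bins were picked by their excess of MDA-468 sites, so their larger share of MDA-468 only genes follows from that choice. Over all chromosomes that share was 38.1%. Across 20 bins with at least 5 such genes, Spearman's rho between median GC content and the share of genes in MDA-468 only was 0.82, a description of bins that share the same 2 lists. At 0 to 5 Mb the median GC content was 62.8% and 71.4% of genes were in MDA-468 only, and at 5 to 10 Mb these were 49.3% and 26.3%.

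**Figure D4:**
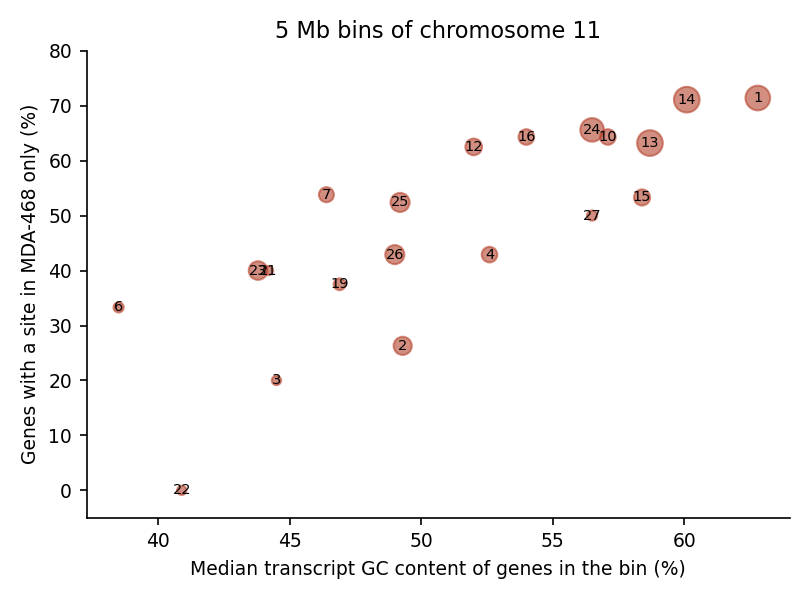
Share of genes called in MDA-468 only (percent, vertical axis) against the median GC content of the genes' reference transcripts (percent, horizontal axis) in 20 bins of 5 Mb with at least 5 genes with a site. Points carry the bin number and their area grows with the number of genes: bin 1 lies at 62.8% GC and 71.4%, bin 2 at 49.3% and 26.3%, and bin 22 at 40.9% and 0%.

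The share ratio was above 1 in both classes of GC content. Genes with a site were divided at the median transcript GC content over all chromosomes, 49.8%. In the upper class chromosome 11 held 7.72% of MDA-468 sites (6.91 to 8.59) and 4.4% of MCF-10A sites (3.46 to 5.52), a ratio of 1.75. In the lower class it held 4.46% (3.79 to 5.20) and 3.58% (2.96 to 4.28), a ratio of 1.25, with overlapping intervals. This division was chosen after the data were seen.

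Gene groups are set against the protein-coding genes of chromosome 11, of which 24.5% had a site, 13.8% in MDA-468 only, 2.15% in MCF-10A only and 8.53% in both. This background is lowered by its olfactory receptor genes, of which 1.17% had a site, and it leaves out noncoding genes such as H19. A share above it therefore need not set a list apart. Of 4 secreted mucin genes, which encode the gel-forming proteins of mucus, 3 had a site (75%), all in MDA-468 only: MUC5B with 7 sites, MUC6 with 2 and MUC2 with 1. MUC5AC had none. Of 16 genes of the imprinted domain and its neighbours, 5 had a site in MDA-468 only and 2 in both, 43.8% in all. H19, the maternally expressed long noncoding RNA, had 3 sites in MDA-468, at 2016854 to 2017093, 2017752 to 2017901 and 2018349 to 2018468. CDKN1C, a cell cycle inhibitor gene, ASCL2 and TRPM5 had 1 site each in MDA-468 only and TSPAN32 had 2. The growth factor gene IGF2 had 1 site of 837 nt in MDA-468, at 2152583 to 2153419. In MCF-10A it had 1 of 61 nt within that stretch. INS-IGF2 is listed over nearly the same stretch, with 2 sites in MDA-468 and 1 in MCF-10A, so these sites cannot be assigned to 1 gene. KCNQ1OT1, the antisense RNA of the domain, had 3 sites in MDA-468 and 1 in MCF-10A. Counting strand was not given in the sources used here, so sites of KCNQ1OT1 cannot be told apart from those of KCNQ1, in which it lies.

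Of 20 genes of the long-arm amplicon region, 5 had a site in MDA-468 only and 2 in both, 35.0% in all. The fibroblast growth factor genes FGF3 and FGF19 had 2 each in MDA-468, the BRCA2-binding protein gene EMSY had 2, and SHANK2 and the chromatin remodelling gene RSF1 had 1. LTO1 and PPFIA1 had 2 in MDA-468 and 1 in MCF-10A. The other 13 had no site. Of 14 genes with a site whose reference transcript is annotated as a lincRNA or an antisense RNA, 4 had it in MDA-468 only (28.6%; H19, LINC02731, MALAT1 and SENCR) and 4 in MCF-10A only (28.6%; BDNF-AS, DGAT2-DT, KIRREL3-AS3 and LRP4-AS1). The other 6 had it in both lines (42.9%), among them LINC00294, LINC00958 and MIR210HG. On other chromosomes the shares of 408 such genes were 25.2%, 13% and 61.8%. This tally was chosen after the data were seen. A shorter list of 9 long noncoding RNAs had 3 in MDA-468 only, 1 in MCF-10A only and 1 in both. A list of 13 genes held metalloprotease genes of the chromosome and neighbours of their long-arm cluster. Of these, MMP20, the enamel protease gene, had the only site (7.69%), in MDA-468.

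Of 27 DNA damage and chromatin genes, 6 had a site in MDA-468 only and 5 in both, 40.7% in all, and none in MCF-10A only. The first were BANF1, DDB1, KDM2A, PHF21A, PRDM10 and PRDM11, and the others were ATM, CHEK1, FANCF, SIRT3 and the histone methyltransferase gene KMT2A. In KMT2A no site was shared: MDA-468 had sites at 118343762 to 118343912 and 118396070 to 118396340, and MCF-10A had 1 at 118396520 to 118396670. Of 44 transcription factors and cofactors, 10 had a site in MDA-468 only, 4 in both and 1, POU2F3, in MCF-10A only, 34.1% in all. Besides PAX6, the first group held SPI1 with 2 sites and WT1, ETS1, FOSL1, ALX4, PHOX2A, OVOL1, CREB3L1 and PHF21A with 1 each. Of 35 adhesion and tetraspanin genes, 13 had a site in MDA-468 only, 2 in both (FAT3 and MCAM) and 2 in MCF-10A only (CADM1 and CD82), 48.6% in all.

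Of 26 ion channel genes, 7 had sites in MDA-468 only, such as the potassium channel gene KCNK4 (3 sites), 6 in both, such as KCNJ5 and KCNJ11, and SCN3B in MCF-10A only, 53.8% in all. The KCNK4 sites at 64066878 to 64067027 and 64067295 to 64067444 are also listed for CATSPERZ, so they cannot be assigned to 1 gene. Of 38 ubiquitin ligase, TRIM and deubiquitinase genes, 6 had a site in MDA-468 only, 7 in both, among them TRIM5, TRIM6, TRIM66 and TRIM68, and 2 in MCF-10A only (CBL and RNF121), 39.5% in all. A list of 23 ribosomal protein, translation and other genes, which also holds SSRP1, HSPA8, RPS6KA4 and RPS6KB2, had a site in 4 members (17.4%), RPL27A and EIF1AD in both lines, MRPL21 in MDA-468 only and MRPL49 in MCF-10A only. Of 19 genes of blood cells, which the cultures should lack, 5 had a site in MDA-468 only, among them the chemokine receptor gene CXCR5 with 3 sites, and CD3G and MS4A2 had 1 in each line, 36.8% in all. Of 171 olfactory receptor genes 2 had a site (1.17%), OR10Q1 and OR51E2, 1 in each line for both genes. All of these lists were chosen with earlier results known, and none was tested.

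The third question was which sites the authors' own test found to differ. In the authors' deposited table chromosome 11 had 23 sites that were higher in MDA-468 (26.1%, 95% Clopper-Pearson interval 17.3 to 36.6) and 65 higher in MCF-10A (73.9%). Over all chromosomes the authors' deposited table had 21.7% higher in MDA-468 and 78.3% higher in MCF-10A, so chromosome 11 lay within its interval of the background. The chromosome had 361 MDA-468 sites with no MCF-10A partner, while 20 rows of the authors' deposited table overlapped the MDA-468 list only. Most of the unpartnered sites were thus not rows of the differential table. By the authors' deposited table, the median log2 fold change, MDA-468 over MCF-10A, was 3.16 (interquartile range 2.62 to 4.68) for sites higher in MDA-468 and -1.98 (-2.32 to -1.76) for sites higher in MCF-10A. The authors' deposited table had medians of 3.08 and -1.96 on other chromosomes. The authors' deposited table also gives the enrichment over input, with medians of 3.93 in the MDA-468 group and 22.6 in the MCF-10A group.

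The authors' deposited table placed highest in MDA-468, by log2 fold change, sites in ZC3H12C (5.56), ROBO3, an axon guidance receptor gene (5.09), KMT2A (4.85), PRDM10 (4.81) and FADS2, a fatty acid desaturase gene (4.78). The site in KMT2A, at 118343762 to 118343882, falls in the first of its MDA-468 sites given above. The authors' deposited table placed highest in MCF-10A sites in the chloride channel gene ANO1 (-6.97), the phosphatase gene UBASH3B (-5.11), TMEM86A (-5.02), GPR83 (-3.4) and the cofilin gene CFL1 (-3.26). In the authors' deposited table the CFL1 site had an enrichment over input of 1.38. Neither it nor the ANO1 site overlapped a site list. Among members of the gene groups, the authors' deposited table further gives as higher in MDA-468 sites in CDHR5 (4.72), MCAM (4.63), FLI1 (4.16), KCNQ1OT1 (3.68), EMSY (3.16), RSF1 (2.64), ETS1 (2.21), MALAT1 (2.04) and TRIM44 (0.84). Of these, MALAT1 (1.3) and RSF1 (1.89) had an enrichment over input under 2. Lower values, towards MCF-10A, stand in the authors' deposited table for sites in, among others, KCNJ11 (-2.8), POU2AF1 (-2.75), KCNJ5 (-2.6), TRIM66 (-2.2), ATM (-2.13), CD82 (-2.07), RPL27A (-1.94 and -1.9), FANCF (-1.75) and ZBTB3 (-1.44). The RPL27A site at -1.94 had an enrichment over input of 1.16 in the authors' deposited table and overlapped neither list. POU2AF1 thus had 5 sites called in MDA-468 alone, while its 1 row in the authors' deposited table was higher in MCF-10A.

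**Figure D5:**
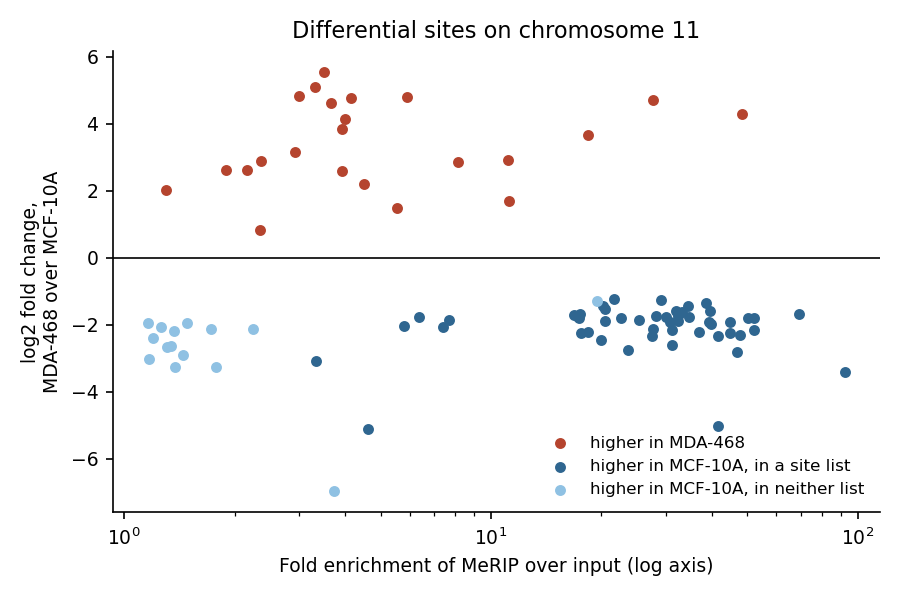
The authors' log2 fold change, MDA-468 over MCF-10A (vertical axis), against the authors' fold enrichment over input (horizontal, log axis) for 88 chromosome 11 sites of the authors' deposited table. Red points are 23 sites higher in MDA-468, dark blue points sites higher in MCF-10A that overlap a site list, and light blue points 15 sites higher in MCF-10A that overlap neither list, most of which lie at an enrichment under 2.

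The median transcript GC content was 50.0% in 22 genes that the authors' deposited table gives as higher in MDA-468 and 48.1% in 56 genes with a site higher in MCF-10A. Among sites with an enrichment of 2 or more in the authors' deposited table these medians were 54.6% and 45.8%, and among those under 2 they were 39.4% (2 genes) and 58.2% (10 genes). On other chromosomes the authors' deposited table gave 52.9% and 46.0% over all its genes. Of the sites that the authors' deposited table gives as higher in MDA-468, 20 of 23 had a partner in the MDA-468 list only and 3 in both lists (13%, against 4.37% on other chromosomes). Of those higher in MCF-10A, 45 of 65 overlapped both lists (69.2%, against 87.6% on other chromosomes) and 5 the MCF-10A list only.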

How the data were processed

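Reads were aligned with TopHat to hg19, per the submitters' processing notes, and differential sites were predicted with exomePeak on UCSC known genes, per the file headers. Thresholds and the pooling of replicates are not stated in any source used here. Each site carries a p-value deposited by the authors; some are listed at 0. The differential table holds the authors' fold enrichment (a ratio of MeRIP over input), their log2 fold change, and a false discovery rate deposited as a logarithm, a score that was not used here. Its title line and name give opposite directions; of 389 positive sites 381 overlapped the MDA-468 list and 19 the MCF-10A list, so positive was read as higher in MDA-468.

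Sites were binned by their start. Exon blocks were compared with a minimum overlap of 1 bp on the same strand. Genes were named from Entrez identifiers through a RefSeq table, 356 of 357 on chromosome 11, and transcripts (the longest, coding first) came from GENCODE 29 for 348. Named genes followed a fixed rule: most sites per class, leading bins, the longest sites, the smallest p-values, the largest log2 fold changes and members of 13 lists. The members, lists and rule were chosen with earlier results of these data known. The calculations, tested on simulated lists, used Python 3.11.15, pandas 2.3.3, numpy 2.4.6 and scipy 1.17.1. A comparison of sequence content is not reported here. No test between lines was made, since sites and genes are not replicates.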

Additional observations from a re-analysis of the deposited data

How the results depend on the processing

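Of 57 alternative values, 35 stayed within the 95% interval of the reported value or within 1.5 times the reported count. The share of sites on chromosome 11 was larger in MDA-468 under each alternative run. It was 5.56% in MDA-468 when only its 5194 sites of smallest p-value were kept, against 3.81% in MCF-10A. Counting genes instead, it was 6.1% in MDA-468 and 4.4% in MCF-10A, and without the 3 leading bins 3.86% and 2.99%. In genes of high and low transcript GC content it was 7.72% and 4.46% in MDA-468 and 4.4% and 3.58% in MCF-10A. Bins with a larger share in MDA-468 were 57 of 90 at 1 Mb and 9 of 14 at 10 Mb, and of 5 Mb bins 12 of 24 at equal length and 13 of 24 under a p-value limit of 1e-08, against 16 of 25. At 1 and 10 Mb the 3 leading bins held 32.1% and 76.6% of the net excess, against 64.7% at 5 Mb. The same 4 bins led at equal length or when a p-value limit of 1e-08 was set. MDA-468 sites overlapping the other list were 36.2% with that limit and 44.3% at equal length. For MCF-10A sites the share was 63.6% at equal length and 64.6% when at least 50% of a site had to overlap. Genes at equal length were 107 in MDA-468 only, 47 in MCF-10A only and 116 in both. With at least 2 sites per gene, 83 genes were in MDA-468 only, 6 in MCF-10A only and 17 in both. In MCF-10A the higher sites of the authors' deposited table numbered 32 at an absolute log2 fold change of 2 or more. The median MDA-468 length was 181 nt as genomic span and 181 nt under the p-value limit. Where these alternatives shorten a list or raise a limit, fewer sites enter by construction; otherwise the cause was not tested. No paired analysis was possible because no file holds values per library, and for the same reason no replicate could be left out. Overlapping gene models list some sites more than once: 508 MDA-468 rows merged to 490 intervals and 198 MCF-10A rows to 195. Depth is unknown, so a site missing from a list may lie under its limit of detection.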

Other observations

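Neither site list contained 15 of the 65 chromosome 11 sites that the authors' deposited table gives as higher in MCF-10A, a count chosen after the data were seen. This is 23.1%, against 56 of 1341 on other chromosomes (4.18%), and the next chromosome, 17, had 8.14%. They lay in RPS3 (3 sites) and RPL27A, which encode ribosomal proteins, the translation elongation factor gene EEF1G, the ferritin gene FTH1 (2 sites), the cofilin gene CFL1, COX8A of the respiratory chain, POLR2L of RNA polymerases, the protease gene CTSD and the tetraspanin genes CD81 and CD151, ANO1 and the long noncoding RNA NEAT1. Their median fold enrichment in the authors' deposited table was 1.38, and 12 chromosome 11 sites higher in MCF-10A had an enrichment under 2 (18.5%), against 34 on other chromosomes (2.54%). One RPS3 site, at 75114560 to 75115142, had an enrichment of 19.4 in the authors' deposited table and still overlapped neither list. Median transcript GC content of the 12 genes was 56.3%.

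Strand was uneven in MDA-468 on chromosome 11, with 228 sites on the plus strand and 280 on the minus strand. MCF-10A had 102 and 96. On other chromosomes MDA-468 had 3938 and 3874. No chromosome 11 site of either list overlapped a site of the same list on the opposite strand.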
